A study of Mus musculus with 144 samples.

Results

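The genes described here are the 10 enzymes that carry tryptophan to kynurenine, quinolinate and NAD, or that recycle or remove nicotinamide, in mouse hepatocyte cultures treated with TCDD (2,3,7,8-tetrachlorodibenzo-p-dioxin). They were chosen by name from the pathway and not by a rule on measured values, but with earlier results of these data known. They are 10 of the 55359 genes counted in each library: *Tdo2* (ENSMUSG00000028011), *Ido2* (ENSMUSG00000031549), *Afmid* (ENSMUSG00000017718), *Kmo* (ENSMUSG00000039783), *Kynu* (ENSMUSG00000026866), *Haao* (ENSMUSG00000000673), *Acmsd* (ENSMUSG00000026348), *Qprt* (ENSMUSG00000030674), *Nampt* (ENSMUSG00000020572) and *Nnmt* (ENSMUSG00000032271). The RNA-Seq libraries come from primary hepatocytes of 28-day-old male mice carrying 1 of 2 labels, WT (strain C57BL/6NCrl) or PkmΔDRE (strain Pkm-delta-DRE, homozygous for a CRISPR-Cas9 deletion of a dioxin response element in an intron of *Pkm*, made in the whole animal and bred onto C57BL/6N). Cells stood in Williams E medium with 100 nM dexamethasone, a glucocorticoid that every group received, on collagen-coated plates, and were given 10 nM TCDD or the DMSO vehicle and harvested at 9 hours between 2 and 120 h. Each of the 36 combinations of label, treatment and hour has 4 libraries, numbered here in the order of their records, and these numbers were not used to pair libraries. The labels name no animal or isolation for a library, so the p-values measure the spread between these libraries, which may be technical, and the label cannot be told apart from the isolation of the cells.

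In liver, the ring of tryptophan is opened mainly by tryptophan 2,3-dioxygenase (TDO2), a heme enzyme of hepatocytes long known to be induced by glucocorticoids and by tryptophan, while IDO2 catalyses the same step with a poor affinity for its substrate. Arylformamidase (AFMID) then releases kynurenine, which is itself a ligand of the aryl hydrocarbon receptor (AHR), the receptor that binds TCDD. Kynurenine 3-monooxygenase (KMO), kynureninase (KYNU) and 3-hydroxyanthranilate dioxygenase (HAAO) convert it to aminocarboxymuconate semialdehyde. At this branch point ACMSD sends the semialdehyde towards full oxidation, and what escapes it closes into quinolinate, which QPRT commits to NAD. NAMPT carries out the rate-limiting step of the other main route to NAD, the salvage of nicotinamide released by NAD-consuming enzymes, and NNMT methylates nicotinamide so that it leaves that cycle.

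Promoters are shown because liganded AHR binds DNA elements with the core GCGTG. Windows from 250 bases before to 50 bases after the RefSeq start (GRCm38.p6) are described for *Tdo2*, *Haao*, *Nampt*, *Kmo*, *Qprt* and *Afmid*. The core was searched on both strands with no other motif. It occurred in the windows of *Tdo2*, *Haao* and *Nampt*, and in 32.4% of all 32851 windows of this length. In the sequences below, written 5′ to 3′ on the gene's own strand, capitals mark the core, read as CACGC where it lies on the opposite strand.
*Tdo2*, chr3:81975679-81975978, minus strand: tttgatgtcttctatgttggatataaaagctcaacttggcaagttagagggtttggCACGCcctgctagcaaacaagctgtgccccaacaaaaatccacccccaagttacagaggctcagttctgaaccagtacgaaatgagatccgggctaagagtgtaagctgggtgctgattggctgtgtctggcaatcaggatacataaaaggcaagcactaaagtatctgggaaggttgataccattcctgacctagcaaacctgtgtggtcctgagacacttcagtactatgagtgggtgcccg
*Haao*, chr17:83846741-83847040, minus strand: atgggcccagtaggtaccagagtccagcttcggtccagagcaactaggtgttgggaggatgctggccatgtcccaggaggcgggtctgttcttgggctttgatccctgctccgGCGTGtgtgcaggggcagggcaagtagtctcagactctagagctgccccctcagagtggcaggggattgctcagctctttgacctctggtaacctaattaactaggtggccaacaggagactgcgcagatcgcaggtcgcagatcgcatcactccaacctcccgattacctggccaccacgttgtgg
*Nampt*, chr12:32820085-32820384, plus strand: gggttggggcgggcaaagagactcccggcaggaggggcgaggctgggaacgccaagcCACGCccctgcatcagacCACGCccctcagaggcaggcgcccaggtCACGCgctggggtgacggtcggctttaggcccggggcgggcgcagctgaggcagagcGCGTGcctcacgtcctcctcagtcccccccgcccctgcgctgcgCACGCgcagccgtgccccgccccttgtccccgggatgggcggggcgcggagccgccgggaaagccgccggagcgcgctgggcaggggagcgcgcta

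The window of *Nampt* held 5 cores, 1 forward and 4 reverse. *Tdo2* had 1 reverse core whose first base lay 194 bases before the start, and *Haao* had 1 forward core, also upstream. The windows of *Kmo*, *Qprt* and *Afmid* held no core. A match of 5 letters is a description of the sequence and not a binding site.

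Between 13588848 and 30719161 read pairs per library were counted on genes, with a median of 18011825. *Pkm*, the gene whose element was removed, went against the labels: averaged over the hours its log2 fold change with TCDD was 0.61 (adjusted p = 0.0367) in the libraries labelled PkmΔDRE and -0.26 (adjusted p = 0.227) in those labelled WT, so directions below belong to libraries by their label. *Cyp1a1*, the standard AHR target, contradicted the treatment of 4 libraries labelled WT, namely vehicle 48 h replicate 1 and 96 h replicate 3 (high) and TCDD 2 h replicate 4 and 72 h replicate 4 (low). Vehicle libraries labelled PkmΔDRE at 4 h replicate 4 and 96 h replicate 4 resembled another hour, with a correlation to their own hour of 0.587 and 0.583 where all other libraries had at least 0.846. Summed over *Alb*, *Apoa1*, *Ttr*, *Cps1*, *Hnf4a* and *Fgb*, which mark hepatocytes, the vehicle libraries of both labels lay between 126451 and 207790 CPM (counts scaled to library size) at 2 h and between 3308 and 18154 CPM at 120 h, and no library listed any of the 6 at 0. Values below are CPM of the TMM-scaled library size, and a gene was called when its fold change was 1.5 or more and its p from edgeR's quasi-likelihood test, adjusted by Benjamini-Hochberg over all genes tested, was under 0.05.

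The order of the enzymes changed during culture. Per kilobase of exon, the level at 2 h in vehicle libraries labelled WT averaged 226 CPM per kb for *Tdo2*, 146 for *Nnmt*, 128.7 for *Haao*, 101.4 for *Qprt* and 80.5 for *Kmo*. It was lower for *Kynu* (28.6 CPM per kb), *Ido2* (18.3), *Nampt* (11.7), *Acmsd* (11.5) and *Afmid* (6.05). By 120 h *Nnmt* (31.1 CPM per kb) and *Qprt* (20.02) led the order, *Kynu* (8.76), *Nampt* (8.22), *Acmsd* (5.71) and *Tdo2* (4.87) followed, and *Haao* (0.339 CPM per kb) had become the lowest. At 2 h the library ranges of neighbours in this order overlapped from *Tdo2* down to *Kmo* and from *Ido2* to *Acmsd*, and did not overlap between *Kmo* and *Kynu*, *Kynu* and *Ido2*, or *Acmsd* and *Afmid*. At 120 h every neighbour overlapped the next. In the libraries labelled PkmΔDRE the leading genes per kb at 2 h were again *Tdo2*, *Nnmt*, *Haao*, *Qprt* and *Kmo*, and at 120 h *Nnmt* and *Qprt* led and *Haao* stood last (0.162 CPM per kb).

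**Figure D1:**
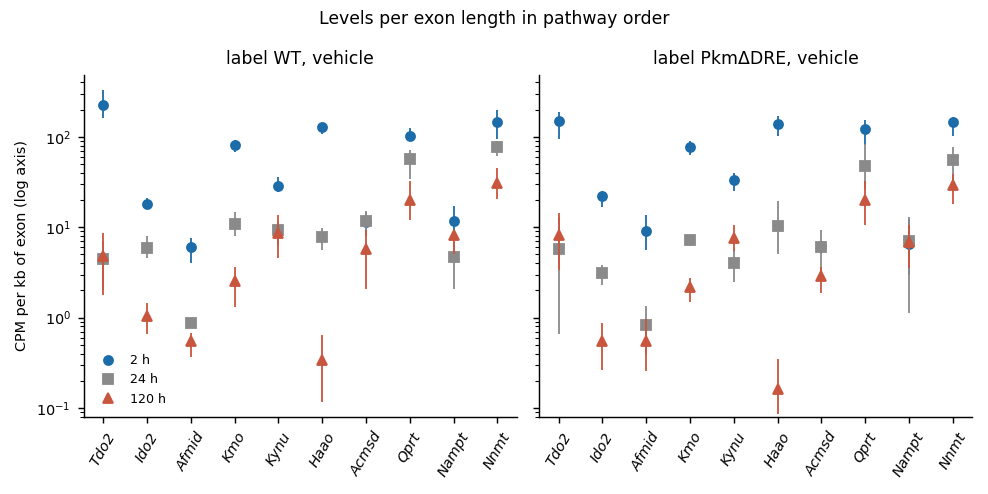
Levels of the 10 enzymes in vehicle-treated libraries as CPM per kilobase of exon (logarithmic axis) at 2 h, 24 h and 120 h, by label. Symbols are means of 4 libraries and vertical lines run from the lowest to the highest library. *Haao* moves from 128.7 to 0.339 CPM per kb under the label WT, while *Nampt* is at 11.7 and 8.22 CPM per kb.

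Most of these enzymes fell with time in culture without TCDD. In the 3 comparisons of hours within each label (24 h with 2 h, 120 h with 24 h and 120 h with 2 h, which share libraries), the 10 genes gave 45 calls in 60 tests, and all 45 were decreases. From 2 to 120 h, 10 of 10 fell in the libraries labelled WT and 9 of 10 in those labelled PkmΔDRE, where 61.1% of all tested genes were called in each label and 26.9% and 27.9% were called lower. From 2 to 24 h, 9 and 8 of 10 fell under the labels WT and PkmΔDRE, where 47.9% and 30.7% of all genes were called (24.4% and 13.5% lower). From 24 to 120 h, 6 and 3 of 10 fell, where 45.5% and 15% were called (20.8% and 7.23% lower). The share of the 10 genes called lower was thus above that of all genes in all 6 comparisons. From 2 to 120 h the median log2 fold change of the 10 genes was -3.09 and -3.54, against 0.16 over all tested genes in both labels. The hepatocyte markers fell with them, 6 of 6 in both labels, with a median of -3.89 and -4.04, and the part of this in the enzymes' decrease was not tested. In bulk RNA, fewer cells of a type and less RNA per cell cannot be told apart.

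*Tdo2*, the entry enzyme, was at 766, 847, 1278 and 623 CPM in the 4 vehicle libraries labelled WT at 2 h, at 27.04, 12.9, 20.8 and 7.81 CPM at 24 h and at 20.9, 14.1, 6.96 and 33.7 CPM at 120 h. The groups at 24 and 120 h lay far below the 2 h group and overlapped each other. The log2 fold change was -5.91 from 2 to 24 h and -5.73 from 2 to 120 h (SE 0.493, adjusted p = 4.54e-06), and 0.11 from 24 to 120 h, which was not called. No further decrease was called after 24 h. The label PkmΔDRE gave -4.63 from 2 to 24 h and -4.37 from 2 to 120 h, with 0.55 (not called) in between.

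*Haao*, which makes the semialdehyde at the branch point, fell the furthest and was called lower again from 24 to 120 h. Its 4 vehicle libraries labelled WT stood at 498, 624, 616 and 671 CPM at 2 h, at 35.3, 37.7, 26.2 and 45.99 CPM at 24 h and at 0.552, 3.02, 0.888 and 1.89 CPM at 120 h, and no groups overlapped. The mean was lowest at 72 h (0.557 CPM), and stood at 3.42 CPM at 96 h and 1.59 CPM at 120 h. The log2 fold change was -4.29 to 24 h, -4.57 from 24 to 120 h and -8.78 over the whole interval (SE 0.523, adjusted p = 4.23e-07). The label PkmΔDRE gave -9.89 over the whole interval (SE 0.527, adjusted p = 6.75e-08), ending at 0.484, 1.62, 0.521 and 0.406 CPM.

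*Kmo*, which hydroxylates kynurenine, fell from 399, 437, 360 and 325 CPM at 2 h to 9.17, 15.6, 6.14 and 17.3 CPM at 120 h in vehicle libraries labelled WT, a log2 fold change of -5.18 (SE 0.34, adjusted p = 7.13e-07). *Ido2*, the low-affinity entry enzyme, fell from 65, 76.04, 66.1 and 58.3 CPM to 2.69, 5.31, 2.37 and 4.87 CPM (-4.32, SE 0.287, adjusted p = 7.56e-07). Under PkmΔDRE the same interval gave -5.36 for *Kmo* and -5.51 for *Ido2*. No WT groups overlapped for either gene, and both were also called lower from 24 to 120 h in each label. *Afmid*, the kynurenine-releasing hydrolase, fell from 14.3, 17.8, 26.97 and 26.5 CPM to 2.38, 2.21, 1.30 and 1.96 CPM (-3.64, SE 0.301, adjusted p = 3.18e-06), again without overlap, and had reached -3.02 by 24 h, with -4.25 from 2 to 120 h under PkmΔDRE. On GRCm38 the gene overlaps *Tk1* on the other strand and *Gm20708* on its own strand. These counts do not use strand, so a pair lying in either overlap is ambiguous and is counted for neither gene. The exon length used per kilobase includes the overlaps, so the level per kb of *Afmid* may be too low.

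*Kynu*, which splits off alanine, fell and then stood higher at 48 h than at 12 h. Its vehicle libraries labelled WT stood at 152, 164, 222 and 166 CPM at 2 h, at 21.8, 24.0, 16.7 and 16.5 CPM at 12 h and at 78.9, 91.3, 46.6 and 59.4 CPM at 48 h, so that the 48 h group lay above the 12 h group and below the 2 h group. No test between 12 and 48 h was made. The log2 fold change from 2 to 120 h was -1.90 under the label WT (SE 0.287, adjusted p = 0.000196) and -2.31 under PkmΔDRE.

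At the branch point the fitted decrease over the whole interval was smaller for *Acmsd*, the diverting enzyme, than for *Haao* before it. *Acmsd* was at 37.9, 40.4, 29.1 and 23.1 CPM at 2 h in vehicle libraries labelled WT and at 15, 10.8, 16.3 and 15.3 CPM by 8 h. It then stood at 33.3, 56.4, 47.2 and 38.1 CPM by 48 h and 11.9, 26.4, 5.81 and 20.5 CPM by 120 h. The 48 h libraries overlapped those of 2 h and lay above all those of 8 h. From 2 to 24 h it was not called in either label (-0.21 and 0.07). From 2 to 120 h it fell, with a log2 fold change of -1.21 under the label WT (SE 0.401, adjusted p = 0.0207) and -1.26 under PkmΔDRE (SE 0.276, adjusted p = 0.00211). The first of these lost its call without vehicle 2 h replicate 1 (-1.13, adjusted p = 0.0514), 2 h replicate 2 (-1.08, adjusted p = 0.0569) or 120 h replicate 1 (-1.09, adjusted p = 0.0656), and a call from 24 to 120 h under that label (-1.07) was kept in 1 of the 8 fits that left out a library. *Acmsd* overlaps *2900009J06Rik* on the other strand, and its level per kb may be too low in the same way as that of *Afmid*. *Qprt*, which takes quinolinate into NAD, went from 235, 331, 240 and 267 CPM at 2 h to 46.3, 86.8, 31.5 and 47.1 CPM at 120 h, without overlap (-2.54, SE 0.291, adjusted p = 3.03e-05), and gave -2.83 over that interval under PkmΔDRE. Under PkmΔDRE its fall from 2 to 24 h (-1.39) lost the call without vehicle 2 h replicate 1 (-1.22, adjusted p = 0.0514) or 24 h replicate 3 (-1.23, adjusted p = 0.0517).

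The genes of nicotinamide handling differed from each other. *Nnmt* fell from 251, 315, 150.2 and 202.5 CPM at 2 h to 36.2, 70.7, 56.2 and 32.7 CPM at 120 h in vehicle libraries labelled WT (-2.44, SE 0.303, adjusted p = 5.25e-05), with -2.53 under PkmΔDRE. *Nampt* was at 48.9, 38.8, 86.2 and 61.9 CPM at 2 h, at 18.1, 23.5, 22.98 and 20.6 CPM at 8 h and at 47.2, 25.6, 46.5 and 46.9 CPM at 120 h, and its 2 h and 120 h groups overlapped. Its decrease from 2 to 120 h under the label WT was small (-0.70, SE 0.261, adjusted p = 0.0345) and lost its call without vehicle 2 h replicate 3 (-0.48, adjusted p = 0.101), 2 h replicate 4 (-0.67), 120 h replicate 2 (-0.53) or 120 h replicate 3 (-0.73). Under PkmΔDRE *Nampt* was not called between any of these hours, with -0.06 from 2 to 120 h.

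**Figure D2:**
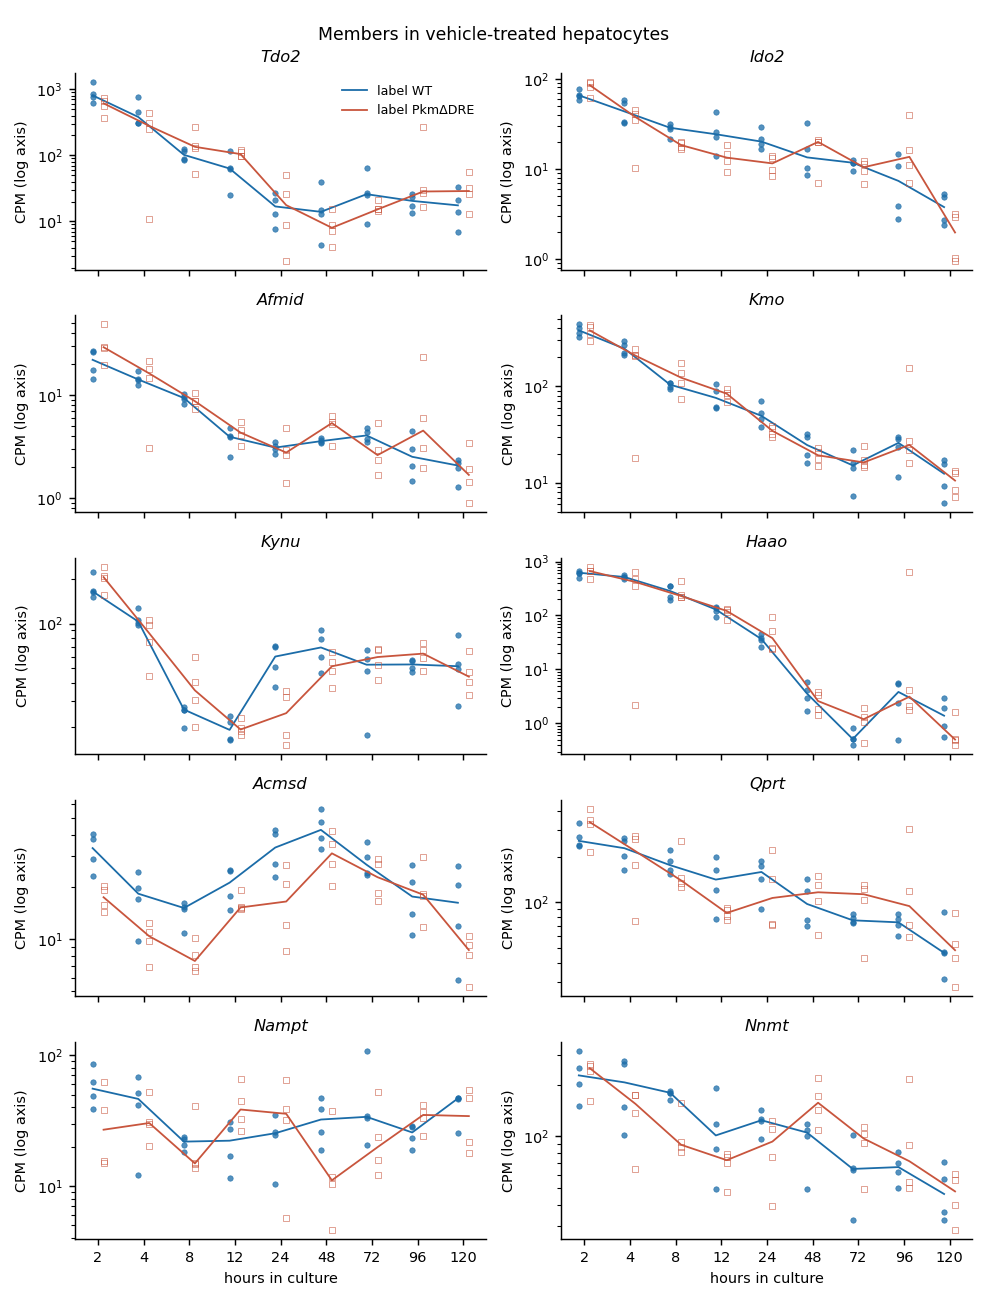
CPM of each enzyme (logarithmic axis) in vehicle-treated libraries against hours of culture (evenly spaced categories), by label; points are libraries and lines join group medians. *Haao* is lower at 120 h than at 24 h while *Tdo2* is at 17.5 CPM (median) at 120 h under the label WT, and the single high *Haao* point at 96 h (638 CPM) and low one at 4 h (2.17 CPM) are the PkmΔDRE libraries that resembled another hour.

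With TCDD, the clearest single-hour responses in the libraries labelled WT were at 8 and 96 h. Over the 9 hours, 7 of 90 tests of the 10 genes were called under this label (3 increases, 4 decreases) and 1 of 90 under PkmΔDRE, with 21 and 13 at an unadjusted p under 0.05. At 8 h under the label WT, *Tdo2* and *Nampt* rose and *Qprt*, *Nnmt* and *Haao* fell, 5 of 10, in a comparison where 37.4% of all tested genes were called. At 96 h *Tdo2* rose and *Nnmt* fell, 2 of 10, where 15.1% of all genes were called. The shares of the 10 genes are thus near the background in both. The 8 h groups under the label WT also differed in library quality. Of the uniquely mapped pairs, 8.36% to 21.9% lay outside genes with TCDD and 4.89% to 5.99% with vehicle, and 18337 to 20626 genes were detected against 15401 to 17203. In TCDD replicate 1, 48% of pairs named no gene. With the share outside genes as a covariate, *Tdo2* (1.31), *Nampt* (1.97), *Qprt* (-0.80) and *Nnmt* (-0.98) kept their calls at 8 h and *Haao* lost its call (-0.72, adjusted p = 0.0685). Without that replicate, *Tdo2* (1.25), *Nampt* (1.67), *Qprt* (-0.77), *Nnmt* (-0.84) and *Haao* (-0.69) were called. The part of the other quality differences was not tested. No gene of the 10 was called under the label WT at the other 7 hours, where between 0 and 1.46% of all genes were called (0% at 2, 4 and 72 h, then 0.0321% at 12 h, 0.373% by 24 h, 0.00763% at 48 h and 1.46% after 120 h).

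*Tdo2* was higher with TCDD in each of the 9 hours under the label WT by its fitted value, between 0.24 and 1.85 on the log2 scale, and in 7 of 9 hours under PkmΔDRE. At 8 h the vehicle libraries labelled WT held 115.2, 125.7, 87.99 and 84.7 CPM and the TCDD libraries 239, 275, 295 and 184 CPM, without overlap, and *Tdo2* rose by a log2 fold change of 1.23 (SE 0.184, adjusted p = 0.0011). At 96 h, 17.2, 13.4, 26.1 and 23.7 CPM with vehicle stood against 70.3, 56.1, 58.97 and 92.3 CPM with TCDD, again without overlap, a rise of 1.85 (SE 0.214, adjusted p = 0.000446). The level with TCDD at 96 h thus stayed below that of every vehicle library at 2 h. At 120 h the groups overlapped, with 20.9, 14.1, 6.96 and 33.7 CPM against 39.6, 38.95, 18.02 and 41.3 CPM, and the value of 0.87 (SE 0.449, adjusted p = 0.385) was not called.

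Under the label PkmΔDRE *Tdo2* was called at no hour. At 72 h the TCDD libraries spread from 21.8 and 22.2 to 59.4 and 128.7 CPM, all above the vehicle libraries at 20.8, 15.2, 15.2 and 14.3 CPM (1.78, SE 0.498, adjusted p = 0.158). Without vehicle 72 h replicate 1 this value was 1.93 and was called (adjusted p = 0.0423). At 96 h the fitted value was -0.15 (adjusted p = 0.968), with vehicle libraries at 26.6, 16.5, 30.1 and 268 CPM against 42.7, 109.5, 138.1 and 47.5 CPM with TCDD. The vehicle library at 268 CPM is the one that resembled 4 h. Without it and its counterpart at 4 h, an alternative chosen after seeing the data, *Tdo2* at 96 h was 1.75 and was called (adjusted p = 0.0465).

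*Nnmt* moved the opposite way. Its fitted value was negative in 8 of 9 hours under the label WT (from -1.45 to 0.20) and in 7 of 9 under PkmΔDRE (from -2.13 to 0.50). All TCDD libraries lay below all vehicle libraries at 3 and 2 of these hours. The share of all genes that separate in this way is not given here, so these counts are descriptions. At 8 h under the label WT, 163, 180.1, 185 and 179 CPM with vehicle stood against 126.3, 121.2, 57.8 and 124.9 CPM with TCDD, and *Nnmt* fell by 0.75 on the log2 scale (SE 0.212, adjusted p = 0.0128). Without TCDD 8 h replicate 3, the lowest, the value was -0.54 and no longer reached the fold threshold (adjusted p = 0.00569). At 96 h the vehicle libraries held 70.4, 80.8, 50.1 and 62.3 CPM and the TCDD libraries 26.4, 20.01, 21.9 and 24.4 CPM. This fall, with a log2 fold change of -1.45 (SE 0.158, adjusted p = 0.000246), had the lowest adjusted p of the 10 genes with TCDD in any single hour. Without the vehicle library of that hour whose *Cyp1a1* was high, the values at 96 h were -1.57 for *Nnmt* and 2.00 for *Tdo2*, and both kept their calls.

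The sole call under the label PkmΔDRE was *Nnmt* at 72 h, where 1.13% of all tested genes were called. Replicates 1, 2 and 3 with vehicle held 49.2, 102.8 and 91.7 CPM and replicate 4 was the highest, and the TCDD libraries held 27.3, 35.1, 24.7 and 31.9 CPM, without overlap, and *Nnmt* fell by 1.61 on the log2 scale (SE 0.261, adjusted p = 0.0108). The call was lost without TCDD 72 h replicate 1 (-1.57, adjusted p = 0.0536) or replicate 3 (-1.53, adjusted p = 0.0524). At 96 h the value was -2.13 (adjusted p = 0.373), with vehicle libraries at 89.1, 50.4, 54.4 and 216 CPM and TCDD libraries at 33.7, 16.1, 26.8 and 23.8 CPM, and without both libraries that resembled another hour it was -1.41 and was called (adjusted p = 0.0177). At 120 h, 55.9, 28.7, 39.8 and 60.5 CPM stood against 22.4, 17.6, 29.6 and 21.8 CPM, which overlapped (-1.04, SE 0.245, adjusted p = 0.116). In the other 8 hours under this label between 0 and 0.633% of all genes were called (0% for 2 and 4 h, 0.106% for 8 h, 0.024% for 12 h, 0.016% for 24 h, 0.404% for 48 h, 0.0793% for 96 h and 0.633% for 120 h). Late libraries under this label also differed by treatment in unmapped pairs. These were 2.88% to 3.74% with TCDD against 4.57% to 6.87% with vehicle at 48 h, and 2.43% to 3.16% against 3.06% to 7.74% at 72 h. At 96 h they were 1.96% to 2.9% against 4.3% to 11.1%, and at 120 h 2.2% to 2.48% against 4.06% to 6.68%. The part of this difference in the late values was not tested.

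Markers of bile duct cells, *Krt19*, *Krt7*, *Epcam* and *Sox9*, were also lower where *Nnmt* was called at 96 and 72 h. Their summed level was 258.8 to 300.8 CPM with vehicle and 129.9 to 148.2 CPM with TCDD at 96 h under the label WT (2 of 4 lower, *Krt19* -1.33), and 198.2 to 291.9 against 82.4 to 139.8 CPM at 72 h under PkmΔDRE (1 of 4 lower, *Krt19* -1.51). Of all tested genes, 15.1% and 1.13% were called in these comparisons. Under the label WT the bile duct sums overlapped at 8 h (11.92 to 27.6 against 9.876 to 20.28 CPM). At 120 h, where *Nnmt* was not called, they were lower without overlap (140.3 to 193.1 against 105.7 to 111.5 CPM). Macrophage markers were lower at 8 h under the label WT, with 110.5 to 164.1 against 55.5 to 97.02 CPM. There 2 of 4 tested were called lower, where 37.4% of all genes were called, and *Ptprc* was at 0 in 39 libraries of the series. The hepatocyte sums under the label WT were lower with TCDD at 8 h without overlap, 64916 to 73072 CPM against 74025 to 86753 CPM. At 96 h they were 7544 to 14818 CPM with vehicle and 13617 to 15777 CPM with TCDD. The part of these markers in the *Tdo2* and *Nnmt* results was not tested.

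**Figure D3:**
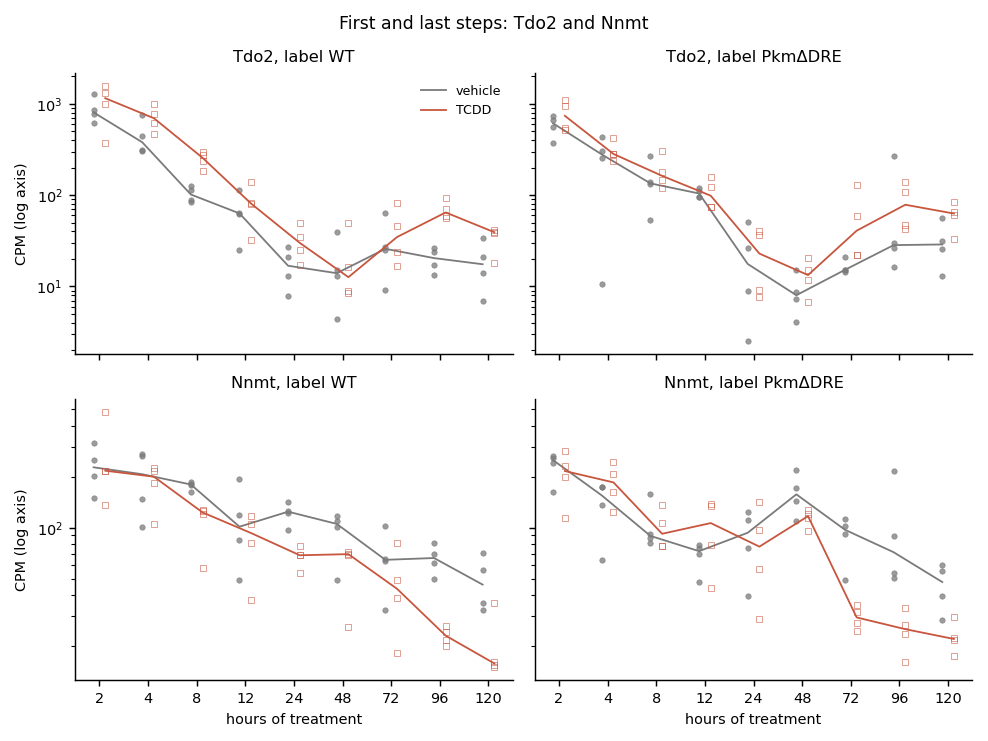
CPM of *Tdo2* and *Nnmt* (logarithmic axes) by hour (evenly spaced), label and treatment; points are libraries and lines join group medians. At 96 h under the label WT the *Tdo2* points with TCDD (56.1 to 92.3 CPM) lie above all vehicle points and the *Nnmt* points with TCDD (20.01 to 26.4 CPM) lie below them.

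*Nampt*, the salvage enzyme, rose with TCDD at 8 h under the label WT, from 18.1, 23.5, 22.98 and 20.6 CPM to 39.5, 64.6, 106 and 38.3 CPM, without overlap and with the highest TCDD library well apart from the lowest (1.51, SE 0.286, adjusted p = 0.00204). Its fitted values were positive in 8 of 9 hours under this label, and at 96 h it was 0.37 (adjusted p = 0.0826). Under PkmΔDRE they were positive in 5 of 9. At 2 h there, 14.97, 62.8, 15.5 and 38.3 CPM with vehicle overlapped the TCDD libraries, of which replicates 1, 3 and 4 held 42.7, 68.7 and 46.3 CPM and replicate 2 was the highest (1.24, SE 0.54, adjusted p = 0.332), and the value was 1.69 and called (adjusted p = 0.0441) without vehicle 2 h replicate 2. At 8 h, 13.8, 41.1, 14.7 and 15.1 CPM overlapped 23.2, 30.9, 23.4 and 38.1 CPM (0.46, not called).

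In the middle of the pathway *Qprt* and *Haao* fell at 8 h under the label WT. *Qprt* fell from 219, 187, 164 and 155 CPM with vehicle to 109.3, 137.1, 74.5 and 115.4 CPM with TCDD, without overlap (-0.76, SE 0.188, adjusted p = 0.00629). *Haao* fell from 355, 349, 219 and 191 CPM to 203, 216, 176 and 140.3 CPM (-0.63, SE 0.218, adjusted p = 0.0308). These *Haao* groups overlapped, and its call was lost without vehicle 8 h replicate 1 (-0.49), vehicle replicate 2 (-0.50), TCDD replicate 3 (-0.61) or TCDD replicate 4 (-0.52), with adjusted p between 0.0783 and 0.0985, and with the covariate given above. Of the others at this hour, *Kynu* passed the adjusted p and not the fold threshold, with 26.4, 27.4, 26.4 and 19.9 CPM against 36.5, 34.8, 40.7 and 30.3 CPM (0.48, SE 0.17, adjusted p = 0.036). *Ido2* had 27.7, 29.5, 31.3 and 21.2 CPM against 15.6, 19.9, 13.03 and 26.2 CPM (-0.58, SE 0.231, adjusted p = 0.055). *Kmo* (0.11), *Acmsd* (0.14) and *Afmid* (-0.34) were not called.

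The alternative with 1 fit per label and 1 surrogate variable ended every call of *Tdo2*, *Nnmt*, *Nampt*, *Qprt* and *Haao* at 8 h and of *Tdo2* and *Nnmt* at 96 h under the label WT. With it the 8 h value of *Tdo2* was 0.22, of *Nnmt* -0.11, of *Qprt* -0.38 and of *Haao* -0.22, and *Nampt* turned to -0.12, while the 96 h values were 1.39 for *Tdo2* and -1.16 for *Nnmt*. In 1 fit per label without it, *Nampt* (1.39) and *Qprt* (-0.87) kept their calls and the other 5 had adjusted p between 0.0669 and 0.118.

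*Haao* reached its largest fitted responses where its level was nearly gone. At 120 h under the label WT, 0.552, 3.02, 0.888 and 1.89 CPM stood against 0.123, 0.0434, 0.461 and 0 CPM with TCDD, without overlap (-3.35, SE 0.869, adjusted p = 0.0928, not called). At 96 h under PkmΔDRE the value of -6.28 (SE 2.13, adjusted p = 0.619) rested on the vehicle library at 638 CPM beside 2.06, 1.75 and 4.20 CPM. Without the 2 libraries that resembled another hour it was -0.24 (adjusted p = 0.932).

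*Acmsd*, the diverting enzyme, had negative fitted values in 6 of 9 hours under the label WT and in 8 of 9 under PkmΔDRE, and none was called. At 24 h under the label WT, 42.6, 27.03, 40.5 and 22.9 CPM stood against 18.2, 13.6, 19.96 and 10.4 CPM (-1.02, SE 0.26, adjusted p = 0.171), and at 48 h 33.3, 56.4, 47.2 and 38.1 CPM against 18.1, 23.5, 28.4 and 13.9 CPM (-1.03, SE 0.267, adjusted p = 1). All TCDD libraries lay below all vehicle libraries at both hours. At 12 h under PkmΔDRE the same order held, with 15.4, 19.2, 15.1 and 14.9 CPM against 9.55, 5.92, 6.72 and 5.83 CPM (-1.25, SE 0.246, unadjusted p = 0.000526, adjusted p = 0.29). *Afmid* likewise had negative values in 8 and 7 of 9 hours without a call. Without a call under either label, *Kmo* ranged from -0.80 to 0.12 under WT and from -1.39 to 0.14 under PkmΔDRE, *Kynu* from -0.36 to 0.48 and from -0.32 to 0.07, and *Ido2* from -0.58 to 0.53 and from -0.99 to 0.47. Under PkmΔDRE *Qprt* ranged from -0.40 to 0.52 and *Afmid* from -2.32 to 0.65. The low ends of *Kmo*, *Ido2*, *Qprt* and *Afmid* under this label are 96 h values, whose vehicle group holds a library that resembled another hour. That library held 154 CPM of *Kmo* (others 16.01 to 27.25), 39.14 of *Ido2* (7.072 to 16.1), 302.1 of *Qprt* (59.47 to 118.2) and 23.42 of *Afmid* (1.974 to 6.038). The high ends of *Kynu* and *Afmid* there are 4 h values, whose vehicle group holds its counterpart.

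**Figure D4:**
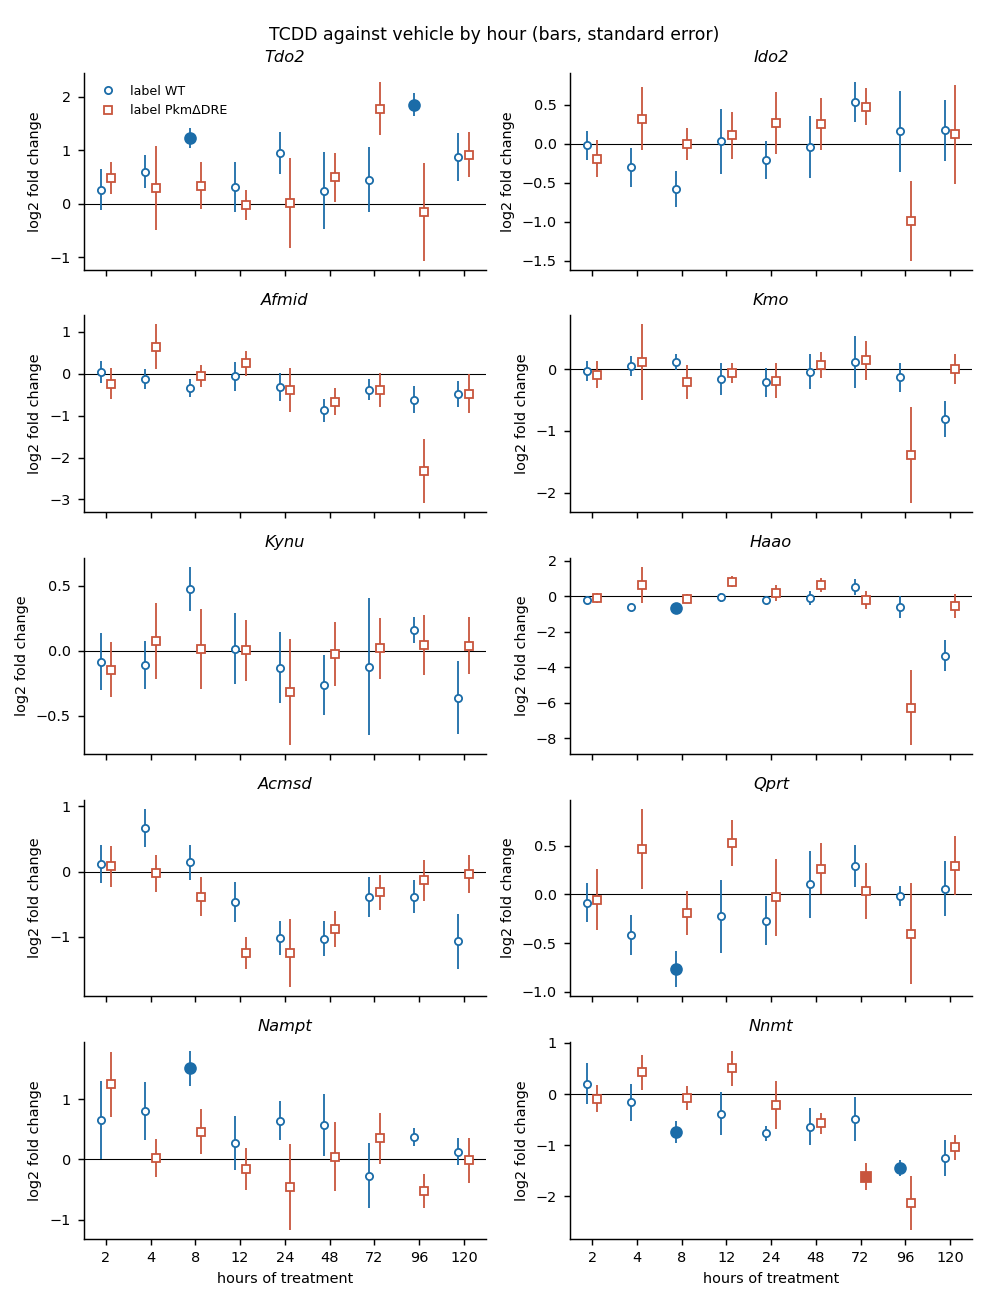
Log2 fold change with TCDD against vehicle for each enzyme at each hour (evenly spaced), by label, from edgeR; bars are 1 SE and filled points were called. Filled points sit at 8 and 96 h under the label WT and at 72 h for *Nnmt* under PkmΔDRE.

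Averaged over the 9 hours, with hour as a factor in the 72 libraries of a label, *Tdo2* rose by 0.70 (SE 0.175, adjusted p = 0.00195) and *Nnmt* fell by 0.67 on the log2 scale (SE 0.14, adjusted p = 0.000345) under the label WT, 2 of 10 genes where 6.58% of all tested genes were called. *Nampt* (0.47, adjusted p = 0.0238), *Acmsd* (-0.43, adjusted p = 0.00605), *Afmid* (-0.38, adjusted p = 0.00101) and *Haao* (-0.51, adjusted p = 0.0112) passed the adjusted p and not the fold threshold, and *Ido2* (-0.07), *Kmo* (-0.17), *Kynu* (-0.09) and *Qprt* (-0.19) passed neither. Under PkmΔDRE edgeR called 0 of 10, where 1.83% of all genes were called, with 3 at an unadjusted p under 0.05 and 0 called by DESeq2. There *Acmsd* (-0.48, adjusted p = 0.00706) and *Nnmt* (-0.54, adjusted p = 0.0434) stayed under the fold threshold and *Tdo2* was 0.44 (SE 0.229, adjusted p = 0.404). The other 7 lay between -0.40 (*Afmid*) and 0.09 (*Nampt*), with *Haao* at -0.22, *Kmo* at -0.19, *Kynu* at -0.05, *Ido2* at 0.02 and *Qprt* at 0.08. The averages under PkmΔDRE include the 2 vehicle libraries that resembled another hour. In these *Haao* was at 2.173 CPM at 4 h (others 356.1 to 626.7) and at 638.1 CPM at 96 h (1.749 to 4.2). Without the 4 libraries whose *Cyp1a1* contradicted their treatment, the values under the label WT were 0.85 for *Tdo2* and -0.81 for *Nnmt*. The median over the 10 genes under the label WT was -0.18, beside -0.00 over all genes.

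A difference in response between the labels was asked for each hour with the treatment-by-label term of a fit to 16 libraries. No gene of the 10 was called by edgeR in 90 tests, where 0% of all genes were called at 7 hours, 0.00715% at 48 h and 0.00695% at 72 h. At an unadjusted p under 0.05 there were 4 of 90, and DESeq2 called 0. These 4, as the PkmΔDRE response minus the WT response, were *Nampt* at 8 h (-1.17, SE 0.501) and 96 h (-0.91, SE 0.326) and *Haao* at 96 h (-5.65) and 120 h (2.82). Without the 2 libraries that resembled another hour, the values at 96 h were -0.81 for *Nampt* (adjusted p = 0.166) and 0.34 for *Haao* (adjusted p = 0.868). For *Tdo2* at 8 h it was -1.01 (SE 0.509) and did not reach that level. A call under 1 label without a call under the other is therefore not shown to be a difference between them.

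Without TCDD, *Acmsd* alone was called as different between the labels, 1 of 10 where 0.542% of all tested genes were called. Over the 72 vehicle libraries with hour as a factor it was lower under PkmΔDRE, with a log2 fold change of -0.61 (SE 0.11, adjusted p = 0.000638), and its mean was lower at 8 of 9 hours. Without the 2 libraries that resembled another hour *Acmsd* was at -0.60 (adjusted p = 0.000556). At 2 h, 19.3, 20.2, 14.4 and 15.7 CPM under PkmΔDRE stood below 37.9, 40.4, 29.1 and 23.1 CPM under WT. At 8 h, 8.06, 10.2, 6.58 and 6.92 CPM stood below 15, 10.8, 16.3 and 15.3 CPM. At the other 7 hours the libraries of the labels overlapped. *Ido2* had the next most hours with a lower mean under PkmΔDRE, 7 of 9, and was not called (-0.28). Its libraries under PkmΔDRE also lay below all those under WT at 2 hours. These were 8 h (16.66 to 19.66 against 21.24 to 31.27 CPM) and 24 h (8.371 to 14.06 against 16.78 to 29.35 CPM). *Kynu* and *Nnmt* had 1 such hour each. The share of all genes with such hours is not given here. The other 8 lay between -0.16 (*Nampt*) and 0.31 (*Haao*), with *Kynu* at -0.09, *Nnmt* at -0.07, *Kmo* at 0.01, *Qprt* at 0.05, *Tdo2* at 0.11 and *Afmid* at 0.26.

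**Figure D5:**
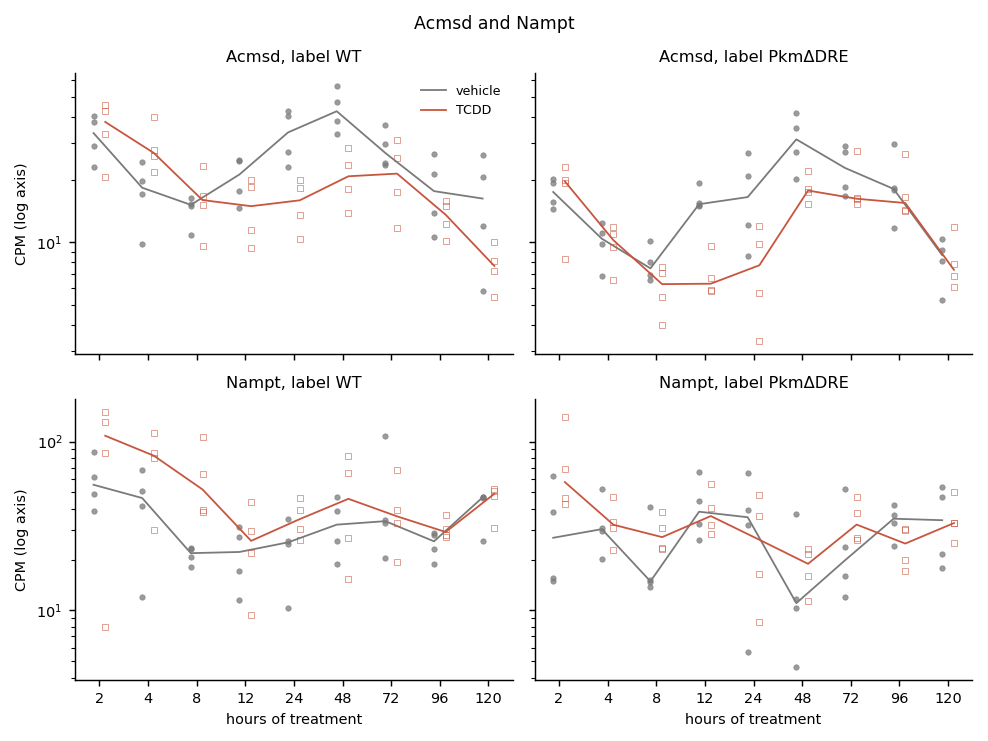
CPM of *Acmsd* and *Nampt* (logarithmic axes) by hour (evenly spaced), label and treatment; points are libraries and lines join group medians. At 2 h and 8 h the vehicle libraries labelled PkmΔDRE (14.4 to 20.2 and 6.58 to 10.2 CPM) lie below those labelled WT for *Acmsd*, and *Nampt* with TCDD lies above vehicle at 8 h under the label WT.

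Other genes of the pathway were followed as lists. Of 13 further tryptophan and kynurenine genes, 87 tests with TCDD under the label WT gave 2 increases and 3 decreases, and 88 under PkmΔDRE gave no call by edgeR (13 at an unadjusted p under 0.05). At 8 h, 3 of 10 tested were called where 37.4% of all genes were, and at 96 h, 1 of 9 where 15.1% were. At 24 h, 1 of 10 was called where 0.373% of all genes were. *Kyat1*, a kynurenine aminotransferase, fell at 8 h (120 ± 37.8 against 209.6 ± 67.9 CPM, SD, n = 4, log2 fold change -0.84, SE 0.262, adjusted p = 0.0202) and at 24 h (-0.70, adjusted p = 0.0433). *Gcdh*, which oxidizes the glutaryl-CoA formed further down the ACMSD branch, fell at 8 h (-0.64) and *Maoa*, a monoamine oxidase, rose (0.67). *Aldh8a1*, which follows ACMSD in that branch, rose at 96 h (1.69, SE 0.493, adjusted p = 0.0275). Averaged over hours the list's median was -0.08 under the label WT and -0.10 under PkmΔDRE, beside -0.00 and -0.03 over all genes. With culture time this list gave 6 increases and 40 decreases in 60 tests. From 2 to 120 h under the label WT 8 of 10 tested were called lower, where 26.9% of all genes were, namely *Kyat1* (-2.52), *Kyat3* (-2.54), *Maob* (-2.83), *Aldh8a1* (-5.31), *Aadat* (-4.38), *Gcdh* (-4.01), *Got2* (-1.93) and *Inmt*. *Inmt*, an indole N-methyltransferase, went from 373 ± 182 CPM at 2 h to 0.00925 ± 0.0185 CPM at 120 h (SD, n = 4) in vehicle libraries labelled WT, and *Maoa* rose by 5.34 and 5.80 on the log2 scale from 2 to 120 h in the libraries labelled WT and PkmΔDRE.

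Of 11 other genes of NAD synthesis and salvage, 81 tests under the label WT gave 1 increase and 2 decreases and 81 under PkmΔDRE gave none by edgeR (4 at an unadjusted p under 0.05). At 8 h, 2 of 9 tested were called where 37.4% of all genes were, and at 96 h, 1 of 9 where 15.1% were. *Naprt*, which salvages nicotinic acid, fell at 8 h under the label WT (42.02 ± 12.2 against 70.02 ± 6.34 CPM, SD, n = 4, log2 fold change -0.77, adjusted p = 0.00849). *Nadk2*, the mitochondrial NAD kinase, rose at 8 h (0.83) and *Pnp*, a nucleoside phosphorylase, fell at 96 h (-0.64). Averaged over hours the median of the list was -0.10 under the label WT and -0.02 under PkmΔDRE. From 2 to 120 h, 5 of 9 tested genes fell in each label, where 61.1% of all genes were called (26.9% lower under WT and 27.9% under PkmΔDRE), namely *Naprt* (-3.36 under WT and -3.47 under PkmΔDRE), *Pnp* (-2.25 and -3.01), *Slc25a51* (-1.90 and -1.50), *Nadk* (-1.15 and -1.44) and *Nadsyn1* (-1.07 and -1.65).

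Among 15 NAD-consuming enzymes, the hourly tests gave 8 increases and 2 decreases under the label WT and 2 increases under PkmΔDRE. *Tiparp*, a mono-ADP-ribosyltransferase and AHR target, accounts for 4 of these 8 and both of the 2. At 8 h under the label WT, 6 of 14 tested were called where 37.4% of all genes were, and at 96 h, 2 of 15 where 15.1% were. At 96 h under the label WT TCDD took it from 5.65 ± 1.32 up to 86.2 ± 13.97 CPM (SD, n = 4 each), a rise of 3.99 on the log2 scale (adjusted p = 2.76e-06), and at 72 h under PkmΔDRE from 4.20 ± 2.16 to 90.2 ± 22.8 CPM (4.37, adjusted p = 0.000334). *Sirt1*, an NAD-dependent deacetylase, rose at 8 h (1.54) and 96 h (0.83) under the label WT. *Parp2* (0.84) and *Parp14* (1.34) rose and *Sirt2* (-0.63) and *Sirt5* (-0.67) fell at 8 h. Averaged over hours the median of the list was -0.10 under the label WT and 0.05 under PkmΔDRE. From 2 to 120 h under the label WT, 5 of 15 rose and 4 fell, where 61.1% of all tested genes were called and 26.9% were called lower, with *Sirt6* at 1.59 and *Parp3* at 1.17 among the first and *Sirt3* at -2.39 and *Cd38* at -1.24 among the second.

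*Aox3* is an aldehyde oxidase that oxidizes the methylnicotinamide made by NNMT. Under the label WT it rose at 8 h (151.7 ± 37.5 against 61.4 ± 17.1 CPM, SD, n = 4, 1.27, adjusted p = 0.00177), at 96 h (80.5 ± 5.71 against 18.97 ± 6.17 CPM, 2.14, adjusted p = 7.01e-05) and at 120 h (2.16, adjusted p = 0.00326), and under PkmΔDRE at 72 h (67.9 ± 17.1 against 11.99 ± 8.54 CPM, 2.45, adjusted p = 0.015). Of all tested genes, 37.4%, 15.1% and 1.46% were called at 8, 96 and 120 h under the label WT, and 1.13% at 72 h under PkmΔDRE. *Nnmt* was called in the same comparisons except at 120 h, and a link between the genes was not tested. Of 5 tryptophan transporters, 42 tests gave 3 decreases under the label WT, namely *Slc7a5* at 96 h (-1.05) and *Slc3a2* (-0.67), its partner chain, and *Slc6a19* (-0.93) at 8 h, and none under PkmΔDRE by edgeR (6 at an unadjusted p under 0.05). The calls at 8 h were 2 of 5 tested where 37.4% of all genes were called, and that at 96 h 1 of 4 where 15.1% were. Averaged over hours the median of the transporters was -0.33 under the label WT and -0.40 under PkmΔDRE. By comparison the 6 AHR targets *Cyp1a1*, *Cyp1a2*, *Cyp1b1*, *Tiparp*, *Nqo1* and *Ahrr* gave 23 calls higher in 46 tests under the label WT and 26 in 48 under PkmΔDRE. By hour, between 0 and 37.4% of all genes were called under WT and between 0 and 1.13% under PkmΔDRE.

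Over the 36 group means of log2(CPM + 1), which share culture time, the gene most like *Kmo* among 8185 with at least 10 CPM on average was *Sugct* (Pearson r = 0.985), followed by *Dmgdh* and *Pm20d1*. The nearest to *Tdo2* were *Cyp2c68* (0.961), *Ghr* (0.961) and *Aox3* (0.959), and the nearest to *Nnmt* were *Hip1r* (0.953), *Lect2* (0.948) and *St3gal4* (0.941). *Nampt* had less close neighbours, *Fnip2* (0.908), *Tsc22d2* (0.903) and *Bach1* (0.892). Among the 10 genes themselves, *Kmo* and *Haao* were most alike (r = 0.95), then *Ido2* and *Qprt* (0.94) and *Kmo* and *Afmid* (0.92). *Acmsd* stood apart, with r between -0.07 (*Haao*) and 0.41 (*Kynu*), and *Nampt* ranged from 0.17 (*Nnmt*) to 0.59 (*Tdo2*). These correlations are descriptions over groups that share their culture and hours.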

How the data were processed

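RNA was extracted with TRIzol from the cultures, and unstranded paired-end libraries were sequenced. The authors deposited counts per gene: STAR read pairs mapped uniquely to each gene of GRCm39, with no normalization, from which the unstranded column was used. The submitters' processing notes name FastQC 0.11.3, Trimmomatic 0.39, STAR 2.7 and DESeq2. The lines naming no gene held 16.8% to 48% of pairs and were left out, and 0 other per-sample columns were set aside. Labels and methods differ on plate format and seeding density. The libraries were grouped by label, treatment and hour, and fitted without pairing, since the labels give no replicate number. Symbols came from GENCODE M21 for 52083 of 55359 genes, and exon lengths and promoters from GRCm38, whose coordinates are not those of the counted build. The promoters of the other genes are not reported here.

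Counts were scaled by TMM, filtered with filterByExpr (at least 10 counts in a group's worth of libraries and 15 in all) and tested with the robust quasi-likelihood test of edgeR 4.0.16 in R 4.3.3, with Benjamini-Hochberg adjustment over all genes tested. CPM use TMM sizes over all libraries. Each hour was fitted on its own 8 libraries (16 for the interaction), and culture time on 8. Self-tests on simulated counts were run for each kind of fit. The alternatives were RLE scaling, DESeq2 1.42.0, no filter, no fold threshold, a covariate for the share of unique pairs outside genes, 1 fit per label without and with 1 surrogate variable (sva 3.50.0, limma 3.58.1), 1 fit of all libraries for the interaction, leaving out the 4 libraries with discordant *Cyp1a1*, and leaving out each library. Leaving out the 2 libraries that resembled another hour was added after seeing the data.

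All 10 genes were tested in every comparison and are given by value or range, genes of the lists where they were called, and for *Tdo2*, *Kmo*, *Nampt* and *Nnmt* the 3 genes with the most similar pattern. The genes and lists were chosen with earlier results of these data known. Values were tabulated with Python 3.11.15, pandas 2.3.3, numpy 2.4.6 and data.table version 1.17.8, and figures matplotlib 3.10.9.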

Additional observations from a re-analysis of the deposited data

Results flagged for a closer look

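In 23 of 360 combinations of gene and group, 1 of the 4 libraries stood apart from the other 3 by Dixon's criterion at its 95% level on the log scale, where chance alone gives about 1 in 20. They lie in 16 groups and are given as values, without a weighing of causes.

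The TCDD library labelled WT at 120 h replicate 3 stood apart in 4 genes, with *Tdo2* at 18.02 CPM (others 38.95 to 41.26), *Ido2* at 1.751 CPM (4.703 to 5.422), *Kynu* at 34.93 CPM (43.36 to 45.03) and *Nnmt* at 36.03 CPM (15.16 to 16.2). The vehicle library labelled PkmΔDRE at 4 h replicate 4 stood apart in 3, with *Tdo2* at 10.7 CPM (252.7 to 429.6), *Kmo* at 18.09 CPM (206.2 to 242.8) and *Haao* at 2.173 CPM (356.1 to 626.7). Its counterpart at 96 h replicate 4 had *Haao* at 638.1 CPM (1.749 to 4.2).

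Among the other libraries labelled WT, *Kynu* was at 19.91 CPM with vehicle at 8 h replicate 4 (26.38 to 27.36), at 9.729 CPM with TCDD at 72 h replicate 3 (45.5 to 61.06) and at 65.95 CPM with TCDD at 96 h replicate 1 (52.88 to 53.4). *Nnmt* was at 57.83 CPM with TCDD at 8 h replicate 3 (121.2 to 126.3) and at 26.05 CPM with TCDD at 48 h replicate 1 (69.46 to 72.24). *Nampt* was at 25.59 CPM with vehicle at 120 h replicate 2 (46.52 to 47.19).

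Among the other vehicle libraries labelled PkmΔDRE, *Tdo2* was at 20.84 CPM at 72 h replicate 1 (14.32 to 15.21), *Ido2* at 7.035 CPM at 48 h replicate 2 (19.9 to 20.76) and *Nampt* at 41.1 CPM at 8 h replicate 2 (13.79 to 15.05). *Haao* was at 442.1 CPM at 8 h replicate 4 (220.8 to 235.9) and at 1.619 CPM at 120 h replicate 2 (0.4057 to 0.521), and *Acmsd* at 19.17 CPM at 12 h replicate 2 (14.88 to 15.41). With TCDD under this label, *Kmo* was at 13.68 CPM at 120 h replicate 3 (9.435 to 9.599), *Acmsd* at 27.46 CPM at 72 h replicate 3 (15.34 to 16.25) and *Afmid* at 2.216 CPM at 120 h replicate 1 (1.097 to 1.157).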

How the results depend on the processing

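The number of calls with TCDD under the label WT, 7 in the main fits, was 12 with DESeq2 and 3 in 1 fit per label. It was 1 with 1 surrogate variable added, and 5 to 9 with each library left out. The call with the surrogate variable was none of the 7, and 1 of the 3 in 1 fit per label was also not among them. The 1 call under PkmΔDRE became 4 without the filter, 5 with DESeq2, 3 with the covariate, 3 without the 2 libraries that resembled another hour, and 4 in 1 fit per label without or with the surrogate variable, and 0 to 3 with each library left out. It was 0 without TCDD 72 h replicate 1 or 3, 3 without vehicle 72 h replicate 1 or 96 h replicate 4, and 2 without vehicle 2 h, 48 h or 120 h replicate 2. The interaction gave 1 call in 1 fit of all libraries (*Haao* at 96 h, -5.45) and 0 to 0 with libraries left out. Culture time gave 42 to 48 calls over the alternatives and 43 to 45 with each library left out, and the label difference stayed at 1. Averaged over hours, the 2 calls over both labels became 8 without the fold threshold. At 8 h under the label WT, *Kynu* turned to -0.00 and *Nampt* to -0.12 with the surrogate variable, and the cause was not tested. Of the other values of single genes under alternatives, 728 kept direction and call, 39 lost a call and 8 gained one. No paired analysis was possible because the labels give no replicate number, animal or isolation, and the order of the records was not used to pair libraries. That order is not without structure: under the label WT at 2 and 4 h, 12.2% to 14.5% of pairs were unmapped in replicates 1 and 2 of both treatments and 7.14% to 10.4% in replicates 3 and 4. Whether such libraries share a culture, and what a paired fit would call, was not tested. Genes at under 1 CPM, as *Haao* at 120 h, rest on few counts.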
